A study of Mus musculus with 4 samples.

Results

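Granzymes are the serine proteases of cytotoxic granules, and perforin, serglycin and several serpins act with them. Of the 52636 genes of the deposited table, 10 were selected by symbol. They were the granzyme genes Gzma, Gzmb, Gzmc, Gzmk and Gzmm, the perforin gene Prf1, the serglycin gene Srgn and the clade B serpin genes Serpinb6b, Serpinb9 and Serpinb9b. Each symbol matched 1 row. All 10 had a count in at least 1 library and 9 passed the filter on low counts, Gzmk being the exception.

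The study measured RNA by sequencing in 4 libraries of C57BL/6 mouse splenic CD4 T cells, 2 labelled E4BP4-conditional knockout (E4BP4-cKO) and 2 labelled wild-type. Naive CD4 T cells of both genotypes were polarised for 3 days towards T follicular helper (Tfh) cells with 10 ng/ml of each of the cytokines IL-21 and IL-6 and with antibodies to IL-4 and IFN-γ at 10 µg/ml and to TGF-β at 20 µg/ml. E4BP4 is a transcription factor encoded by Nfil3, and the comparison asks which RNAs differ in polarised cells between the genotypes. The Cre driver, the deleted exons and the age of the mice are not stated in the labels, nor do they say that replicates stem from different mice or cultures, so p-values measure only the spread between these libraries.

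Total counts ran from 19057077 to 26579592 per library. Nfil3 stood at 179 and 216 CPM (counts scaled to library size with TMM factors) in the E4BP4-cKO libraries and at 13.3 and 14.8 CPM in the wild-type ones (log2 fold change 3.81, edgeR adjusted p = 0.00396, SE 0.15). The targeted gene's RNA thus went against the labels in all 4 libraries, so "cKO-labelled" and "WT-labelled" below name what the labels say, and no difference is attributed to loss of the factor. Xist, expressed in female cells, had 1 and 17 counts in cKO replicate 1 and WT replicate 2, and 21517 and 28571 counts in the other 2 libraries, so each group held 1 library of either kind.

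Cytotoxic granules are secretory lysosomes best known in CD8 T cells and NK cells, although activated CD4 T cells and mast cells can also express granzyme B. The proteoglycan serglycin holds positively charged granule contents, and perforin forms the pores through which granzymes enter a target cell. Granzyme B cleaves after aspartate and activates caspases, while granzyme A is a tryptase that cleaves after basic residues. Clade B serpins are intracellular proteins that trap proteases irreversibly: mouse Serpinb9 inhibits granzyme B and protects cells that make it, Serpinb6b is known in mouse as an inhibitor of granzyme A, and Serpinb9b is a paralogue of Serpinb9.

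The genes lie in few places of the genome (mm10). Gzmb (ENSMUSG00000015437, chromosome 14, 56258838 to 56262260, minus strand) and Gzmc (ENSMUSG00000079186, 56231441 to 56234656, minus strand) share a cluster with Gzmd, Gzme, Gzmf, Gzmg and Gzmn. Serpinb6b (ENSMUSG00000042842, chromosome 13, 32965209 to 32979067), Serpinb9 (ENSMUSG00000045827, 33003250 to 33017957) and Serpinb9b (ENSMUSG00000021403, 33027416 to 33041884), all on the plus strand, lie side by side in the order given. Gzma (ENSMUSG00000023132, 113093825 to 113100981) and Gzmk (ENSMUSG00000042385, 113171608 to 113225908) lie elsewhere on chromosome 13, both on the minus strand. Prf1 (ENSMUSG00000037202, 61297833 to 61304680, plus strand), Srgn (ENSMUSG00000020077, 62493833 to 62527451, minus strand) and Gzmm (ENSMUSG00000054206, 79689020 to 79695261, plus strand) lie on chromosome 10.

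Since the chromosome 14 granzymes had higher levels in the same libraries, the sequences before their start sites are shown. Mast cell protease genes beside them that are in the marker list below also had higher values in both cKO-labelled libraries. Of all tested genes, 34.6% show that order. The protease genes were Mcpt8 (56082166 to 56085273, log2 fold change 1.88, edgeR adjusted p = 0.289), Mcpt4 (2.21, adjusted p = 0.0421) and Cma1 (1.74, adjusted p = 0.0345). They were named after their values were seen, and other mast cell protease genes of the region were not examined. RefSeq promoter windows on GRCm38.p6, the same build as mm10, were found for 10 of the 10 members, in 12 windows, and for the cluster neighbours named here. Over the 250 bases before the start, Gzmc, Gzmd, Gzme, Gzmf and Gzmg were 71.5% to 94.8% identical pairwise, whereas Gzmb was 47.3% to 52.2% identical to these 5. The stretches of 70 bases below hold the longest run that all 5 share, 20 bases, and capitals mark the cyclic AMP response element TGACGTCA, found in 3 of the 5. Of all 32851 promoter windows, 1.55% hold this octamer. The stretches lie in no annotated gene.
Gzmc (chr14:56234673-56234742, minus strand): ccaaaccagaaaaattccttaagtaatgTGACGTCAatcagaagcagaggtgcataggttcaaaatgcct
Gzmd (chr14:56132613-56132682, minus strand): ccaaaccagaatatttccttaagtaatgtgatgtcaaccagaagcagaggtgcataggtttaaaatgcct
Gzme (chr14:56120646-56120715, minus strand): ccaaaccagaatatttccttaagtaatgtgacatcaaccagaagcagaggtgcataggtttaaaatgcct
Gzmf (chr14:56211448-56211517, minus strand): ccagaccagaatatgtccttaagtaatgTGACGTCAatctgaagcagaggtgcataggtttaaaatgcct
Gzmg (chr14:56159615-56159684, minus strand): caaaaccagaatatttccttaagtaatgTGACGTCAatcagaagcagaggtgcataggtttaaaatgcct

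The Gzmb promoter is shown for comparison, as the most abundant granzyme of these cells. Capitals mark an AP-1 motif (TGANTCA, found at -58 to -52) and a Runx motif (TGTGGT, at -34 to -29, with another at -93 to -88 that the edge of the stretch cuts), counted from the RefSeq start site.
Gzmb (chr14:56262335-56262424, minus strand): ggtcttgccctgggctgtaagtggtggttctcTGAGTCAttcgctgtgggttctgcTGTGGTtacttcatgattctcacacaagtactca

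For the serpins, 58.2% of the aligned bases before the starts of Serpinb9 and Serpinb9b were identical. The stretches below are an example of what they share, and capitals mark the 38 of 50 bases that are the same at the same place. The Serpinb9 stretch lies in an intron of the gene as GENCODE annotates it, since RefSeq places the start further in, and that of Serpinb9b lies outside any gene.
Serpinb9 (chr13:33004471-33004520, plus strand): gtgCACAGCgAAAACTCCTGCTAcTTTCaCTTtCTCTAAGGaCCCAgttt
Serpinb9b (chr13:33027340-33027389, plus strand): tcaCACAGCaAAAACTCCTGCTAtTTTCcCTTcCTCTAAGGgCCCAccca

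Motifs were searched on both strands of the 250 bases. The forms TTATGTAA and TTACGTAA of the D-box bound by E4BP4 were in 0 of the 12 members' windows, and in 0.819% and 0.113% of all windows. The Runx motif TGTGGT was in 6 of the 12, those of Gzma, Gzmb, Gzmc, Gzmm, Prf1 and Srgn, against 14% of all windows. The AP-1 motif was in the Gzmb window alone among the members' 12 (6.75% of all). The STAT motif TTCNNNGAA was in 1 window of Gzmm (7.02% of all), and the T-box motif GGTGTGA in 1 window each of Gzmk and Gzmm (3.33% of all). A match here is a run of letters in a short window and no evidence of binding, and its absence says nothing of the factor.

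Of the 9 members tested, 8 were higher in the cKO-labelled libraries and 0 lower (edgeR adjusted p under 0.05), with a median log2 fold change of 2.35. Members and the lists below were chosen with earlier results of these data known. Their counts beside the shares over all genes are therefore a description and no test of the set. Over all 15503 genes tested, 7.68% were called higher and 6.53% lower, with a median of 0.02. That is 1191 higher and 1013 lower, a split that became 1033 and 1636 with total library size in place of TMM factors, under which the 8 members stayed called. At an unadjusted p under 0.05, 1 member was lower, Gzmm, while DESeq2 and limma-voom each called 8 higher and 0 lower. In all 8, both cKO-labelled libraries lay above both WT-labelled ones, a pattern that 34.6% of all tested genes show. Without cKO replicate 2 none of the 8 was called (adjusted p 0.0514 to 0.104), with log2 fold changes of 1.21 to 4.77. Leaving out cKO replicate 1 kept 6 calls (Gzmb and Serpinb9 lost), as did leaving out WT replicate 1 (Gzmb and Srgn lost).

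**Figure D1:**
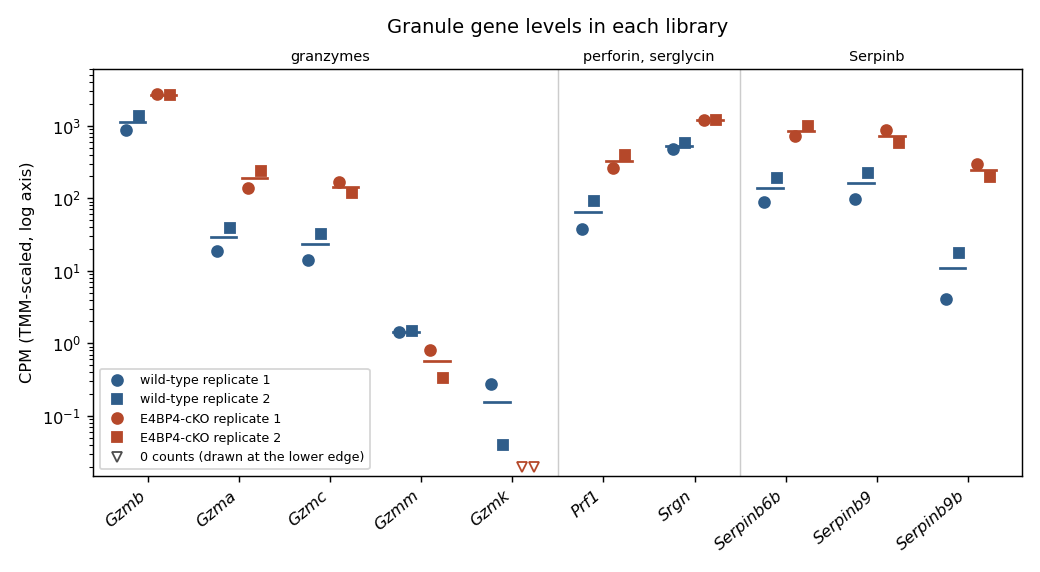
CPM of each member (log axis) in each library, with circles for replicate 1, squares for replicate 2 and a line at the group mean. For 8 members both cKO-labelled libraries lie above both WT-labelled ones. Gzmm and Gzmk lie lowest, and open triangles mark 0 counts.

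Gzmb was the most abundant member in every library per length. It stood at 2702 and 2658 CPM in the cKO-labelled libraries and at 878 and 1349 CPM in the WT-labelled ones. The 2 former agree closely, and each lies between 1.97 and 3.08 times above each of the latter. Its log2 fold change was 1.27 (edgeR adjusted p = 0.0331, SE 0.23), and it lost its call without cKO replicate 1, without cKO replicate 2 and without WT replicate 1 (highest adjusted p = 0.0892).

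Gzma differed by more. It stood at 140 and 240.3 CPM against 18.7 and 38.9 CPM, a log2 fold change of 2.72 (adjusted p = 0.0287, SE 0.43). The lower of the cKO-labelled libraries was 3.59 times above the higher WT-labelled one. Gzmc, a granzyme of the chromosome 14 cluster that rodents have and humans lack, stood at 165 and 118 CPM against 14.2 and 32.3 CPM, with a log2 fold change of 2.60 (adjusted p = 0.0286, SE 0.41). Replicate 2 was the higher cKO-labelled library for Gzma and the lower one for Gzmc, so these 2 genes do not share an order there.

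Gzmm and Gzmk did not follow. Gzmm, a protease that prefers methionine, had 21 and 6 counts against 31 and 38, or 0.81 and 0.33 CPM against 1.42 and 1.49 CPM. Its log2 fold change was -1.31 (adjusted p = 0.129, SE 0.50), which was not called. Gzmk, a tryptase like granzyme A, had 0 counts in both cKO-labelled libraries and 6 and 1 in the WT-labelled ones. With a floor of 3 counts per library, equal to 0.115 to 0.164 CPM, no fold was computed for it. For Gzmm the cKO-labelled libraries lay below the WT-labelled ones without overlap, as for 33.6% of all tested genes, while the order of the libraries for Gzmk lies partly under the floor.

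The granule partners were higher as well. Prf1 stood at 262 and 395 CPM against 37.3 and 91.8 CPM (log2 fold change 2.35, adjusted p = 0.0359, SE 0.46). The cKO-labelled libraries exceeded the WT-labelled ones by 2.86 to 10.6 times. Srgn stood at 1191 and 1211 CPM against 470.2 and 571 CPM, the smallest fold and the smallest SE of the 8 (log2 fold change 1.21, adjusted p = 0.0224, SE 0.15). Srgn lost its call without cKO replicate 2 and without WT replicate 1.

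All 3 serpin genes were higher. Serpinb6b stood at 719.9 and 988 CPM against 89.5 and 191 CPM, a log2 fold change of 2.61 (adjusted p = 0.0274, SE 0.40). Serpinb9 stood at 880.4 and 577 CPM against 97.8 and 226 CPM (log2 fold change 2.17, adjusted p = 0.0380, SE 0.44), and without cKO replicate 1 or replicate 2 it was not called. Replicate 1 was higher for Serpinb9 and replicate 2 for Serpinb6b among the cKO-labelled libraries. Serpinb9b had the largest fold of the 9 members tested, at 299 and 194 CPM against 4.11 and 17.7 CPM. Its log2 fold change was 4.49 (adjusted p = 0.0277, SE 0.69), and the cKO-labelled libraries stood 10.97 to 72.7 times above the others. The WT-labelled libraries differed 4.29-fold from each other.

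Reads that fit more than 1 gene could blur values in these families. Of the 50-base words in the transcripts, 5.38% for Serpinb9b, 4.14% for Gzmc, 2.92% for Serpinb6b and 0.378% for Serpinb9 occur in another gene, and 0% for the other 6 members. For Serpinb9b the partner is mainly Gm36099, an antisense gene that covers 8.3% of its exon bases.

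**Figure D2:**
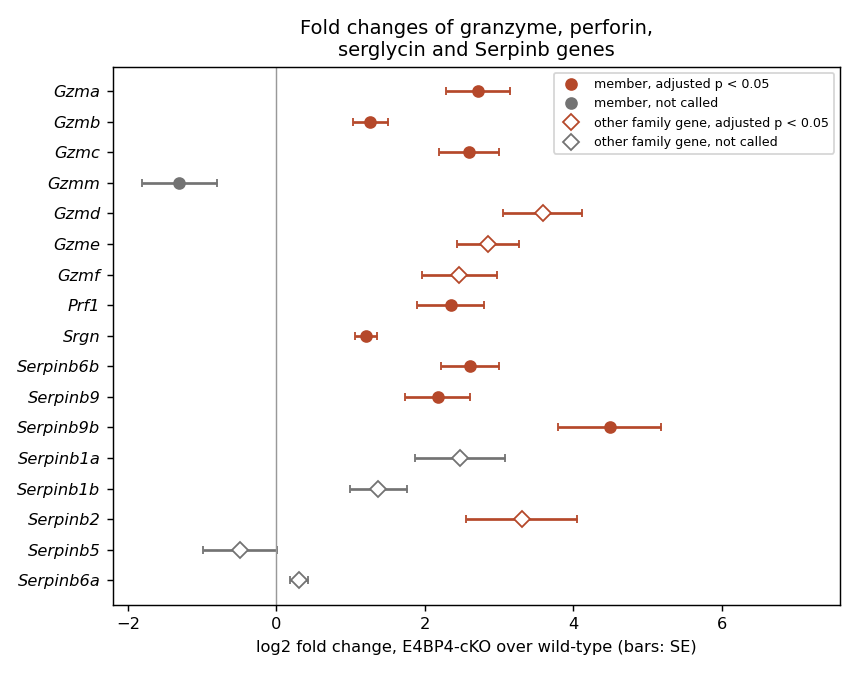
Log2 fold change of E4BP4-cKO over wild-type (horizontal axis, bars are SE) for tested granzyme, Prf1, Srgn and Serpinb genes. Filled circles are members and open diamonds other genes of the families. The 8 called members lie between 1.21 and 4.49, and Gzmm lies at -1.31.

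Levels of different genes can be set beside each other only per length, here as TPM (counts per base of gene length, scaled to the same total in every library). In the cKO-labelled libraries, Gzmb led at 5273 ± 158 TPM (mean ± SD, n = 2), followed by Srgn at 1545 ± 10.4 and Serpinb6b at 1064 ± 217 TPM. These 3 did not overlap with each other or with the next gene. Serpinb9, Gzma, Gzmc and Prf1 came next, from 591 ± 184 to 359 ± 96.2 TPM, and each overlapped with its neighbour in the order. Serpinb9b stood at 208 ± 66.5 TPM, below Prf1 without overlap. In the WT-labelled libraries the order by mean was the same, from Gzmb at 2446 ± 777 and Srgn at 747 ± 118 TPM to Serpinb9b at 10.3 ± 9.19, Gzmm at 3.11 ± 0.175 and Gzmk at 0.351 ± 0.369 TPM.

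The serpins differed by more than Gzmb, so the ratio between them was lower in the cKO-labelled libraries. Summed over the granzyme genes, the level was 6366 and 6298 TPM there against 2013 and 3250.1 TPM. The 3 serpins together stood at 1887 and 1840.1 TPM against 213 and 492 TPM. The ratio of Gzmb to the 3 serpins was 2.85 and 2.80 against 8.90 and 6.09, and that of Gzmb to Serpinb9 alone was 7.47 and 11.2 against 21.9 and 14.5. Neither ratio overlapped between groups. These ratios are a description with no test, and the smallest two-sided p that an exact permutation of the 4 libraries could give is 0.333.

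Gzmb made up less of the summed granzyme level in the cKO-labelled libraries, at 84.6% and 82% against 94.2% and 92.2% of TPM. Gzma made up 6.25% and 10.6% against 2.85% and 3.80%, and Gzmc 8.29% and 5.82% against 2.45% and 3.55%. Within the serpins, Serpinb9 exceeded Serpinb9b 2.82-fold and 2.86-fold against 22.8-fold and 12.3-fold.

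**Figure D3:**
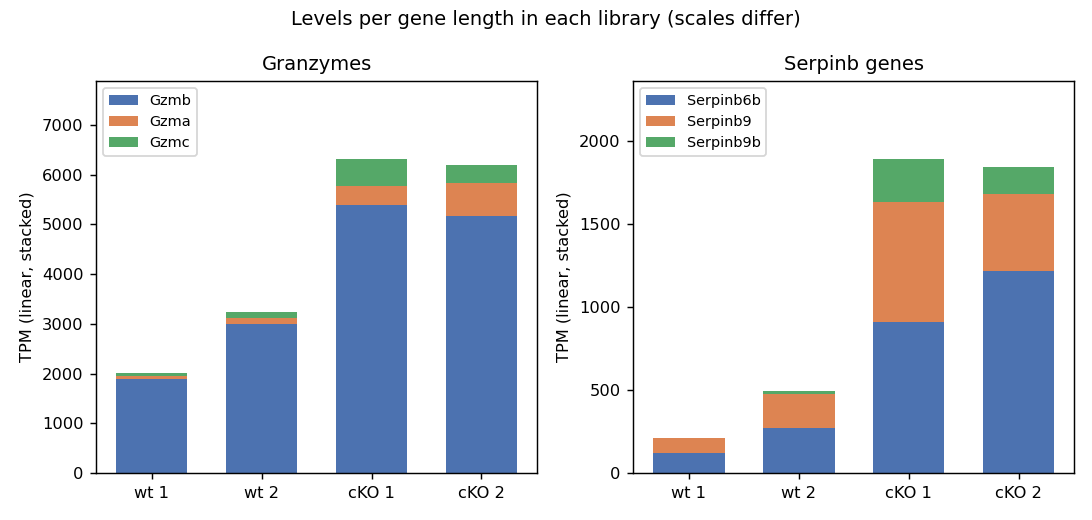
Stacked TPM of Gzmb, Gzma and Gzmc (left) and of Serpinb6b, Serpinb9 and Serpinb9b (right) in each library, on linear axes whose scales differ. The 2 cKO-labelled libraries (cKO) are alike in both sums, while wild-type (wt) replicate 2 is higher than replicate 1.

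Other genes of the 2 families were examined from a list of 5 granzymes and 24 clade B serpins. Of these 29 genes, 15 had a count and 8 passed the filter, and 4 were higher and 0 lower by edgeR (0 lower also at an unadjusted p under 0.05, with DESeq2 and with limma-voom). Among all tested genes, 7.68% were higher and 6.53% lower. Gzmd, Gzme and Gzmf, the neighbours of Gzmc on chromosome 14, were 3 of the 4. Gzmd had 225 and 359 counts against 18 and 38, with a log2 fold change of 3.59 (adjusted p = 0.0273, SE 0.53). Gzme had 173 and 171 counts against 16 and 37 (log2 fold change 2.85, SE 0.42), and Gzmf 54 and 83 against 12 and 16 (2.46, SE 0.51). Without cKO replicate 2, 0 of the 29 were called higher, and without cKO replicate 1, 3 were higher and 1 lower.

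These low cluster genes are harder to tell apart than the members. Of their 50-base words, 19.4% to 21.9% occur in another gene, and 16.4% of the exon bases of Gzmf are covered by the antisense gene Gm4022, so their counts are uncertain. Gzmg had 11 and 26 counts against 0 and 3, a pooled ratio of 13.2 (95% exact counting interval 4.17 to 66.8), and did not pass the filter. Without the filter it was called higher (log2 fold change 3.72, edgeR adjusted p = 7.30e-05), whereas DESeq2 gave an adjusted p of 0.0523. The edgeR fit without the filter gave far smaller p-values for the members too, so this value cannot be set beside those of the main fit. Gzmn had 2 counts in all.

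The fourth gene called was Serpinb2, known for its expression in activated macrophages. It had 854 and 200 counts against 75 and 27, a log2 fold change of 3.30 (adjusted p = 0.0459, SE 0.75). Serpinb1a, an inhibitor of neutrophil serine proteases, stood at 91.9 and 81.9 CPM against 25.2 and 6.24 CPM and was not called (log2 fold change 2.48, adjusted p = 0.0521, SE 0.60). Serpinb6a, the widely expressed relative of Serpinb6b, stood at 69.3 and 76.4 CPM against 54.2 and 63.4 CPM (log2 fold change 0.31, adjusted p = 0.143, SE 0.12). Serpinb1b (log2 fold change 1.37, adjusted p = 0.0668) and Serpinb5 (-0.49, adjusted p = 0.525) were not called. Of the 24 other serpins, 14 had no count in any library.

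The WT-labelled libraries differed from each other in a way shared by the called members. Each of the 8 was higher in WT replicate 2 than in replicate 1, as were 45.0% of all tested genes, and 7 of the 8, all but Srgn, were so by over 1.5 times, as were 9.54% of all tested genes. The ratios were 1.54 for Gzmb, 2.09 for Gzma, 2.27 for Gzmc, 2.46 for Prf1, 2.13 for Serpinb6b, 2.31 for Serpinb9 and 4.29 for Serpinb9b. Serpinb2 and Serpinb1a ran the other way, with replicate 1 3.24 and 4.04 times above replicate 2. The WT-labelled libraries also differed in Xist, with 28571 counts in replicate 1 and 17 in replicate 2.

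Several cell types other than CD4 T cells express these genes, and markers of some of these types differed between the groups too. Fewer cells of a type and less RNA per cell cannot be told apart in these bulk samples. Of 11 mast cell and basophil markers, 5 of the 10 tested were higher and 0 lower in the cKO-labelled libraries, and their summed level was 1537 and 1106 CPM against 393 and 92.2 CPM. Limma-voom called 8 of them higher and DESeq2 called 6, and in all 11 both cKO-labelled libraries lay above both WT-labelled ones. Over all tested genes, edgeR called 7.68% higher and 34.6% show that order. Cpa3 stood at 564 and 368 CPM against 112 and 41.6 CPM, and Tpsab1 had 2 and 3 counts against 0 and 0, at or under the floor. Of 9 macrophage, monocyte and dendritic cell markers, 7 were higher and 0 lower, with sums of 274 and 188 CPM against 42.1 and 19.4 CPM. Fcer1g, a gene of this list that is not confined to these cells, stood at 90.6 and 71.3 CPM against 16.9 and 8.32 CPM. Within the WT-labelled group both sums were higher in replicate 1, the reverse of the 8 called members. Of the markers, 6 of the 11 mast cell ones and 8 of the 9 macrophage ones were higher there. Over all tested genes replicate 2 was the higher one in 45.0%, so the mast cell count is near the share of all genes.

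**Figure D4:**
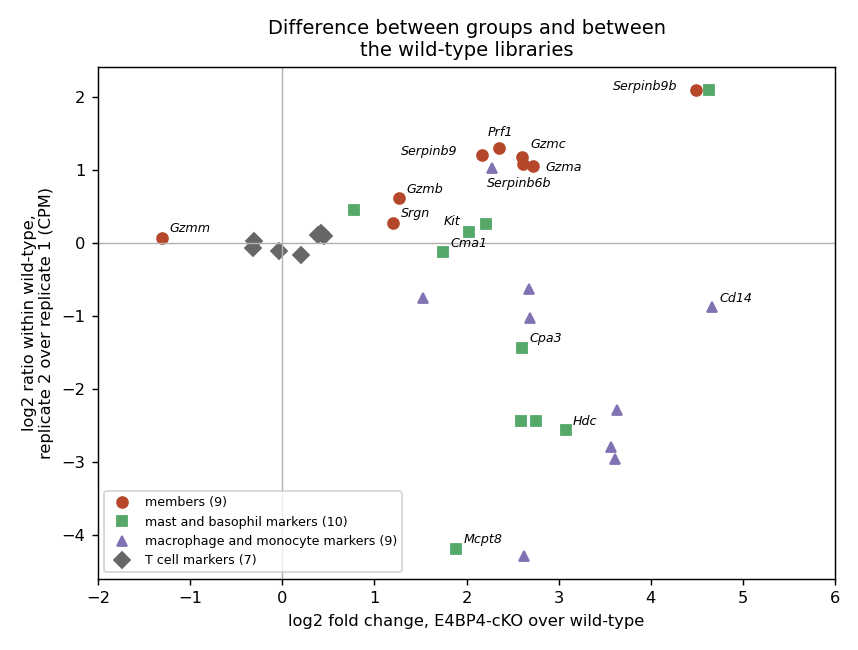
Log2 fold change between the groups (horizontal axis) against the log2 ratio of WT replicate 2 over replicate 1 in CPM (vertical axis). The 8 called members, in red, lie above 0 on the vertical axis, as do 45.0% of all tested genes. Below 0 lie 6 of 10 mast cell markers (green) and 8 of 9 macrophage markers (purple). T cell markers (grey) lie between -0.32 and 0.45 on the horizontal axis.

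Markers of the classical cytotoxic lymphocytes were low. Cd8a stood at 9.84 and 4.53 CPM against 4.34 and 4.16 CPM and Cd8b1 at 2.83 to 3.30 CPM over the 4 libraries, while Cd4 stood at 487 to 768 CPM. Neither CD8 gene was called (adjusted p = 0.236 and 0.974). Of 7 NK cell markers, Ncr1 had 0 counts in every library, Klrb1c had 1 or 2, and the sum was 1.55 to 3.92 CPM with 0 of the 2 tested called either way. Of 5 gamma-delta T cell markers 0 were called either way, and the sums were 72 and 55.4 CPM against 50.6 and 85 CPM. For the CD8, NK and gamma-delta lists DESeq2 and limma-voom also called 0, and at an unadjusted p under 0.05 edgeR called 1, a gamma-delta gene, higher. The 7 T cell markers summed to 2677 and 3272 CPM against 2788 and 2821 CPM, with 0 called by any of the 3 tools and 1 higher at an unadjusted p under 0.05.

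The remaining lists were less alike. Of 6 neutrophil markers, 1 of 2 tested was higher, Ly6g at 47.9 and 29.5 CPM against 5.03 and 8.99 CPM. The other, Mpo, had 37 and 5 counts against 128 and 0 and was not called (log2 fold change -1.71, edgeR adjusted p = 0.516, SE 1.71). In 5 of the 6 both cKO-labelled libraries lay above both WT-labelled ones, as for 34.6% of all tested genes. Among these 5, S100a9 had 144 and 2 counts against 0 and 2, so its order lies partly under the floor. S100a8 had 172 and 4 counts and Elane 27 and 4 in the cKO-labelled libraries, and both had 0 in the WT-labelled ones. Of 7 B cell markers, 2 were lower and 0 higher, against 6.53% lower and 7.68% higher over all tested genes. Their sum was 79.9 and 38.8 CPM against 379 and 376 CPM (Ighm at 43.4 and 23.3 against 242 and 243 CPM). In all 7 B cell markers both cKO-labelled libraries lay below both WT-labelled ones, as for 33.6% of all tested genes. The median log2 fold change of these 7 was -1.71. DESeq2 called 4 of them lower, limma-voom 2, and edgeR 5 at an unadjusted p under 0.05, with 0 higher in each. Of 6 Tfh markers, edgeR called 1 higher, Icos, and 0 lower, while DESeq2 called 1 higher and 2 lower. Their median log2 fold change was -0.30. At an unadjusted p under 0.05 edgeR gave 1 higher and 2 lower, Bcl6 (log2 fold change -0.47) and Pdcd1 (-0.69). Both cKO-labelled libraries lay below both WT-labelled ones in 3 of the 6 and above in 1, against 33.6% and 34.6% of all tested genes. The part of other cells in the members' levels was not tested.

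The genes that process and release granzymes differed less. Of 24, all tested, 6 were higher and 1 lower, with a median log2 fold change of 0.33. Over all tested genes, 7.68% were higher and 6.53% lower. Ctsc, the protease that removes the propeptide of granzymes, stood at 84.8 and 80.4 CPM against 59.98 and 58.7 CPM (log2 fold change 0.48, adjusted p = 0.0380, SE 0.10). Its inhibitor Cst7, or cystatin F, stood at 188 and 178 CPM against 204 and 203 CPM (log2 fold change -0.15, adjusted p = 0.346, SE 0.10). Ctsl, a lysosomal cathepsin, was higher at a log2 fold change of 1.52 (SE 0.25), and Chst12, a sulfotransferase for the chondroitin chains that serglycin carries, at 0.90 (SE 0.13). Sytl2, which links Rab27a to granule secretion, stood at 24 and 34.8 CPM against 3.20 and 8.32 CPM (log2 fold change 2.34, SE 0.47). Rab27a, the GTPase that docks granules, was the 1 lower gene, at 122 and 121 CPM against 162 and 166 CPM (log2 fold change -0.43, adjusted p = 0.0462, SE 0.10), and Ap3b1, a subunit of a lysosomal sorting adaptor, was higher (0.73, SE 0.17). Without cKO replicate 2, 0 of the 24 were called either way, and without WT replicate 1, 2 were higher. With any 1 library left out, 0 were lower.

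Targets of granzymes, with death receptors and ligands, were mixed. Of 18 genes, 17 were tested, 2 were higher and 5 lower, with a median log2 fold change of -0.24. The shares over all tested genes were 7.68% higher and 6.53% lower. Fasl, the ligand of the second killing route, stood at 19.8 and 48.6 CPM against 3.47 and 6.59 CPM (log2 fold change 2.75, adjusted p = 0.0355, SE 0.53). Gsdmd, which forms pores in pyroptosis, was also higher (0.65, SE 0.13). Hmgb2 and Apex1, members of the SET complex that granzyme A attacks, were lower at log2 fold changes of -1.24 (SE 0.20) and -0.95 (SE 0.15), as was Parp1 (-0.63, SE 0.11). Fas, a death receptor, was also lower (-0.70, SE 0.16) and was named after its value was seen. Set (-0.41, adjusted p = 0.102), Nme1 (-0.63, adjusted p = 0.0652) and Anp32a (0.04, adjusted p = 0.872), also of the SET complex, were not called. Bid, which human granzyme B cleaves, stood at 24.1 and 23.3 CPM against 19.8 and 14.6 CPM and was not called (log2 fold change 0.46, adjusted p = 0.153, SE 0.19). Without cKO replicate 2, 0 of these genes were called either way, without WT replicate 1, 0 were higher and 2 lower, without cKO replicate 1, 1 was higher and 4 lower, and without WT replicate 2, 3 were higher and 3 lower.

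The transcription factors and receptors known to control cytotoxic genes did not share a direction. Of 22, 7 were higher and 3 lower, with a median log2 fold change of 0.27, against 7.68% higher and 6.53% lower over all tested genes. Prdm1, the gene of Blimp-1, stood at 9.998 and 20.1 CPM against 4.30 and 4.12 CPM (log2 fold change 1.83, adjusted p = 0.0387, SE 0.37). Runx3, which drives the CD8 lineage and cytotoxic genes, stood at 290.2 and 273 CPM against 109.7 and 175 CPM (log2 fold change 0.98, adjusted p = 0.0485, SE 0.23). Id2 was higher at 0.88 (SE 0.11), Zeb2, a factor of terminal effector cells, at 0.72 (SE 0.12) and Zbtb32, a repressor of the BTB zinc finger family, at 1.87 (SE 0.21).

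Both T-box genes that activate Gzmb and Prf1 in CD8 T and NK cells had lower values. Tbx21, the gene of T-bet, stood at 106 and 80.1 CPM against 179 and 144 CPM and was called (log2 fold change -0.80, adjusted p = 0.0473, SE 0.18). Eomes stood at 11.5 and 24.7 CPM against 28 and 41.4 CPM and was not (log2 fold change -0.95, adjusted p = 0.152, SE 0.39). Id3 (log2 fold change -1.09, SE 0.22) and Lef1 (-0.57, SE 0.11), genes of less differentiated T cells, were the other 2 lower ones. Without cKO replicate 2, 1 of the 22 was higher and 0 lower, as without WT replicate 1.

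**Figure D5:**
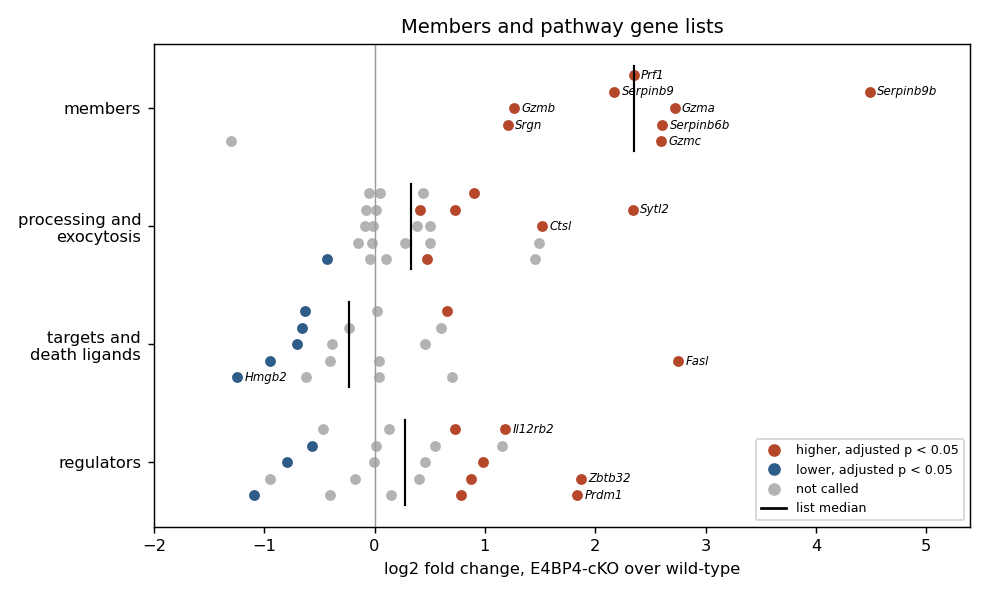
Log2 fold changes of the tested members and of the 3 pathway lists, 1 point per gene, with called genes in red (higher) or blue (lower) and a black line at each list's median. The medians are 2.35 for the members, 0.33 for processing and exocytosis, -0.24 for targets and death ligands and 0.27 for regulators.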

How the data were processed

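RNA-seq counts of 4 libraries were analysed, grouped by the genotype in the labels. The deposited values are raw counts of reads per gene (whole numbers). The submitters' processing notes name CASAVA, HISAT2, featureCounts and mm10. Tool versions, strand setting, annotation and handling of multi-mapping reads were not given in the sources used here. Gene lengths are those of the deposited table, a column in bases whose merging rule is not given.

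From the counts, CPM (TMM factors 0.962 to 1.04) and TPM were computed. Genes passing filterByExpr were tested with edgeR 4.0.16 (glmQLFit, glmQLFTest) in R 4.3.3 without a covariate, two-sided, and p-values were adjusted by Benjamini-Hochberg over the 15503 genes tested. Calls used an adjusted p under 0.05. SE is the unshrunken coefficient divided by the square root of F. The floor is 3 counts per library. Intervals and floors cover counting error only. A single count equals 0.0385 to 0.0546 CPM. Libraries of a group differed beyond sampling noise (chi-square per degree of freedom 29.9 and 23.5).

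DESeq2 1.42.0, limma-voom (limma 3.58.1), other scalings and filters, a replicate block and leaving out each library were alternatives. The fit was checked on simulated counts with known changes and the same dispersion for every gene. It recovered 42.4% of the 2-fold and 96.0% of the 4-fold changes, with 4 false calls among 141. The spread of each gene in these libraries was not simulated, so the check does not give the recovery for the members. Promoters are RefSeq's (GRCm38.p6). Exons and transcripts are GENCODE M21's, and alignments used Biopython 1.88. Members and lists were chosen with earlier results of these data known. Named genes were all members, Nfil3, up to 6 genes with the lowest p in each list, 10 pathway genes fixed by name, and the highest and undetected markers. Gzmg, Gzmn, Serpinb5, Serpinb6a, Fas, Tpsab1, S100a8, Elane, Ly6g, Cd8b1 and Klrb1c were named outside this rule, after their values were seen, as are Stat3 and Il12rb2 (regulators) and Stx7 (exocytosis), which were also called higher. The same holds for S100a9, Mpo, Bcl6, Pdcd1, Cma1, Mcpt4, Mcpt8, Set, Nme1 and Anp32a. A gene that this rule names is not reported here.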

Additional observations from a re-analysis of the deposited data

How the results depend on the processing

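All 9 tested members kept their direction under each of the 12 alternatives. The 8 calls held under DESeq2, limma-voom, median-ratio factors, upper-quartile factors, total library size, both other filters and the replicate block, with log2 fold changes of 1.12 to 4.75 over these fits. Over the fits that left out 1 library, 0 to 8 members were called higher and 0 lower. Other granzyme and Serpinb genes called ranged from 0 to 4 higher and 0 to 1 lower. Processing and exocytosis genes ranged from 0 to 4 higher and 0 lower, targets and death ligands from 0 to 3 higher and 0 to 4 lower, regulators from 1 to 6 higher and 0 to 2 lower, and all genes from 246 to 954 higher and 74 to 806 lower. Each such fit has 1 group of a single library, taken to vary like the other group, and tests fewer samples.

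Without a filter on low counts, 8 other family genes and 11 processing and exocytosis genes were higher, 5 regulators were lower, and 2680 genes were higher and 2237 lower in all. That edgeR fit gave the 8 members adjusted p-values of 1.30e-153 to 4.10e-12, far below the main fit, so its calls carry less weight. Total library size gave 1636 genes lower. DESeq2 called 1795 higher and 1657 lower. Limma-voom called 1 target or ligand higher. The cause of these shifts was not tested. Reference exon lengths gave 6608 TPM for the granzymes and 1945 TPM for the 3 serpins in E4BP4-cKO libraries.

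No label says that replicate numbers pair libraries, and deviations of same-numbered libraries had r = 0.05 over 15339 genes and 0.10 over 14859 autosomal genes. Same-numbered libraries differed in Xist, with 1 and 28571 counts for replicate 1 and 21517 and 17 for replicate 2 (cKO-labelled first). With the number as a block the 8 members stayed called higher (adjusted p 0.0115 to 0.0487), and 0 processing genes were lower. Gzmk, Gzmg and Gzmn did not pass the filter on low counts, and without it Gzmk was not called (adjusted p = 0.190).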
